A study of Caenorhabditis elegans with 23 samples.

Results

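The heat-inducible *hsp-16* and *hsp-70* genes of *C. elegans* were followed in every library of the series. They are 9 genes of 21982 gene entries in the series, chosen by name: *hsp-16.1* (*T27E4.8*), *hsp-16.11* (*T27E4.2*), *hsp-16.2* (*Y46H3A.3*), *hsp-16.41* (*Y46H3A.2*), *hsp-16.48* (*T27E4.3*), *hsp-16.49* (*T27E4.9*), *hsp-70* (*C12C8.1*), *F44E5.4* and *F44E5.5*. A transcript was listed for 8 of the 9 genes, and only *hsp-16.49* had none. Near-identical genes were summed, which left 6 entries: *hsp-16.1/hsp-16.11*, *hsp-16.48/hsp-16.49*, *hsp-16.2*, *hsp-16.41*, *hsp-70* and *F44E5.4/F44E5.5*. The entry *hsp-16.48/hsp-16.49* holds the reads of the *hsp-16.48* transcript alone, and whether reads of *hsp-16.49* were assigned to it was not tested. All 6 entries passed the filter on low counts in every comparison.

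HSP-16 proteins are small heat shock proteins with an alpha-crystallin domain, which bind unfolding proteins and keep them from aggregating without using ATP. HSP-70 and the proteins of *F44E5.4* and *F44E5.5* are inducible members of the Hsp70 family, ATP-driven chaperones that refold bound clients. The transcription factor HSF-1 drives both families when animals meet heat or other proteotoxic stress, and in unstressed worms their mRNAs are scarce, so that they are widely used as a readout of stress. Their constitutive relative is HSP-1, the abundant cytosolic Hsp70 of unstressed cells.

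PolyA+ RNA from mixed-stage whole animals was measured in 23 libraries, in 3 sets that each hold their own wild type (N2) and differ in *sid-1*, the gene for the double-stranded RNA importer SID-1. The set of previously generated alleles has 8 libraries, 2 of each of wild type, *sid-1(qt9[nonsense])* (HC196), *sid-1(tm2700[deletion])* (FX02700) and a rescued strain, *sid-1(tm2700); tmIs1005[sid-1(+)]* (FX15992), which carries the deletion and an integrated transgene that, per the study's strain list, holds a *vps-45* minigene beside *sid-1(+)*. The effects of both transgene parts cannot be told apart. The nonsense and revertant set has 9 libraries, 3 of wild type, 3 of *sid-1(jam80[nonsense])* (AMJ1159) and 3 of *sid-1(jam86[revertant])* (AMJ1217), in which genome editing had returned the jam80 sequence to wild type. The deletion set has 6 libraries, 3 of wild type and 3 of *sid-1(jam113[deletion])* (AMJ1324). Each strain is a single line, so that a strain and its allele cannot be told apart, and no group was given a heat shock. Animals of the nonsense and revertant set and of the deletion set came from plates that were crowded and not starved, and both are called plate sets. For the previously generated alleles the labels give liquid culture and the study's methods give plates, so how these worms were grown is uncertain. That set was also extracted, prepared and sequenced differently (TRIzol, TruSeq and single reads, against RNAzol, TruSeq Stranded mRNA and paired-end reads). Growth, extraction, kit and read type cannot be told apart in any level set across it and the plate sets.

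Libraries held 22147631 to 26396892 estimated reads (previously generated alleles) or 35320382 to 79287591 (plate sets). *sid-1* lay at 1.18 to 1.37 CPM (reads scaled to a common library total) in *sid-1(jam113[deletion])* against 48.9 to 57.2 CPM in its wild type, at 15.95 to 18.8 in *sid-1(jam80[nonsense])* against 32.5 to 36.7, and at 27.9 to 34.0 in *sid-1(jam86[revertant])*. In the older set it lay at 14.5 to 18.3 CPM in *sid-1(qt9[nonsense])*, 22.2 to 23.7 in *sid-1(tm2700[deletion])*, 45.9 to 51.3 in the rescued strain and 30.6 to 32.1 in wild type. These levels go with the strain labels.

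Of the 9 genes, 8 stand in 3 clusters of head-to-head pairs (coordinates of WBcel235). On chromosome V, *hsp-16.1* (9087293 to 9087782, minus strand) lies 348 bp from *hsp-16.48* (9088131 to 9088617, plus strand), and *hsp-16.49* (9089280 to 9089766, minus strand) lies 310 bp from *hsp-16.11* (9090077 to 9090604, plus strand). The 4 genes thus form an inverted repeat of 2 divergent pairs, with 662 bp between the convergent *hsp-16.48* and *hsp-16.49*. Elsewhere on chromosome V, *hsp-16.2* (1804334 to 1804957, minus strand) and *hsp-16.41* (1805178 to 1805875, plus strand) diverge from 220 bp. On chromosome II, *F44E5.4* (11757107 to 11759311, minus strand) and *F44E5.5* (11759662 to 11761861, plus strand) diverge from 350 bp. The ninth, *hsp-70*, is unpaired (chromosome I, 9320325 to 9322519, minus strand), and it lies within an intron of *uggt-2*, a gene on the plus strand, with 0 overlaps between the exons of the genes. No other annotated gene overlaps any of the 9. The *hsp-16* genes have 2 exons and annotated spliced lengths of 384 to 640 nt, whereas *hsp-70* has 3 exons and 2057 nt and *F44E5.4* and *F44E5.5* have 2 exons with 2096 and 2091 nt.

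How well the files resolve the near-identical copies was not tested, so levels and main tests are given as sums. Single copies appear only as the shares below and where pairs were left unsummed. In the plate sets, the transcript of *hsp-16.11* took 99.9 to 100% of the reads of its pair and that of *hsp-16.1* at most 5.93 reads in any library. In the previously generated alleles *hsp-16.1* took 0 to 32.7%. *F44E5.4* was given 19.5 to 45.5% of the reads of its pair in plate libraries and 0 to 65.4% in libraries of the previously generated alleles.

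To see how active these genes were in each culture, levels were first compared between wild types. In wild type of the nonsense and revertant set, the 6 entries summed to 1571, 1059 and 1046 CPM (replicates 1 to 3). In wild type of the deletion set, they summed to 255, 318 and 169 CPM, and in wild type of the previously generated alleles to 48.6 and 58.4 CPM. The same strain, N2, thus spanned from 48.6 to 1571 CPM, and the 3 groups of wild-type libraries did not overlap. For each of the 6 entries, every library of the nonsense and revertant set, mutants included, stood above every library of both other sets in CPM. How many other genes did so was not counted. In TPM, which allow for transcript length, *hsp-16.48/hsp-16.49* overlapped between the plate sets. It had 179 and 208 TPM in *sid-1(jam86[revertant])* replicates 1 and 3, and 211 in wild type replicate 2 of the deletion set.

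Levels between genes are given in TPM, which allow for transcript length. In wild type of the nonsense and revertant set, *hsp-16.1/hsp-16.11* stood at 419 TPM ± 92.9 (SD, n = 3), *hsp-16.48/hsp-16.49* at 391 ± 118 and *F44E5.4/F44E5.5* at 328 ± 66.6, and the ranges of these 3 entries overlapped. Only 1.48 to 1.81% of all gene entries had a higher mean there. *hsp-16.2* followed at 64.6 TPM ± 18.2 and *hsp-16.41* at 49.5 ± 15.2, whose ranges also overlapped, and *hsp-70* was lowest at 25.6 ± 7.69, below every library of the other 5 entries.

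The order was nearly the same at the lower levels of the other wild types. In the deletion set, *hsp-16.48/hsp-16.49* led with 146 TPM ± 59.4 (SD, n = 3), followed by *hsp-16.1/hsp-16.11* with 99.1 ± 40.01, *F44E5.4/F44E5.5* with 59.1 ± 15.3, *hsp-16.2* with 16.3 ± 5.15, *hsp-16.41* with 14.0 ± 4.87 and *hsp-70* with 3.94 ± 1.46. In the previously generated alleles, *hsp-16.48/hsp-16.49* had 24.4 TPM ± 4.81 (SD, n = 2) and *hsp-16.1/hsp-16.11* 18.1 ± 1.52. There *F44E5.4/F44E5.5* had 8.51 ± 0.560, while *hsp-16.41*, *hsp-16.2* and *hsp-70* were scarce with 1.03, 0.916 and 0.349 TPM, so that 73.3% of all gene entries lay above *hsp-70*. These 3 rested on 14 to 44 reads a library in wild type. By comparison *hsp-1*, the constitutive Hsp70, ran from 581 to 598 TPM in wild type of the previously generated alleles, from 956 to 1070 in that of the deletion set and from 1546 to 1734 in that of the nonsense and revertant set.

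**Figure D1:**
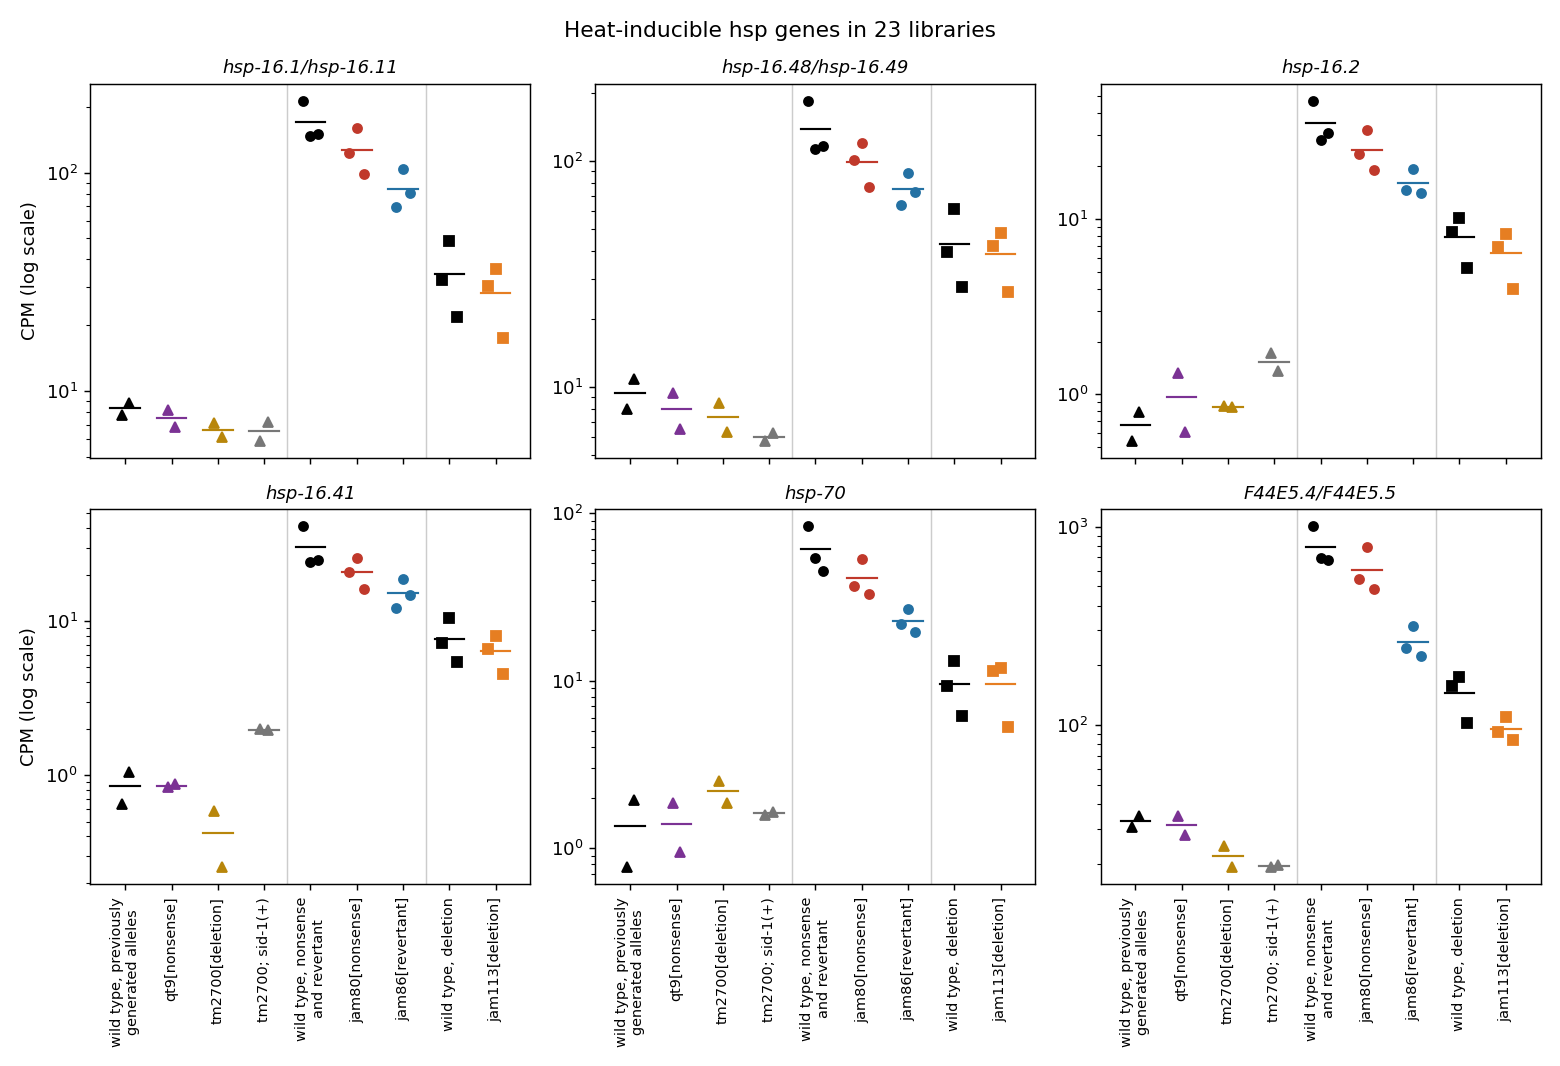
CPM (log scale) of the 6 entries in each of 23 libraries, grouped by strain; points are libraries (triangles, previously generated alleles; circles, nonsense and revertant set; squares, deletion set) and bars are group means. Every entry was highest in the nonsense and revertant set, and wild type replicate 1 of that set stood highest of all libraries in each panel.

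Since the study's methods give both plate sets the same protocol, their wild types could be tested against each other. All 6 entries were lower in wild type of the deletion set than in wild type of the nonsense and revertant set, by 1.95 to 2.95 on the log2 scale (median -2.51, against -0.03 over all genes tested). No entry overlapped between them, but the share of all genes tested without overlap was not counted. The background was large: 64.4% of 16756 genes passed edgeR's quasi-likelihood test (adjusted *p* under 0.05 over all genes tested) in either direction and 33.4% were lower, so a call in this comparison is common. The sizes were not common, since only 0.579 to 2.55% of the genes tested had a more negative fold change than these entries.

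Among the 6, *hsp-70* was 7.75-fold lower in the deletion set (log2 fold change -2.95, SE 0.224, adjusted *p* = 1.42e-07 by edgeR), with 9.29, 12.997 and 6.13 CPM in the 3 wild-type libraries against 83.1, 53.7 and 45.3. *F44E5.4/F44E5.5* was 6.55-fold lower (log2 fold change -2.71, SE 0.173, adjusted *p* = 3.65e-08), and *hsp-16.48/hsp-16.49* fell least, 3.87-fold (log2 fold change -1.95, SE 0.215, adjusted *p* = 3.52e-06). All 6 were lower under each alternative run. These folds follow TMM scaling, which sets the bulk of genes equal between the sets. The summed CPM of the 6 entries, without that scaling, differed 4.96-fold. Neither allows for effective transcript length, which differed between the sets. For *hsp-16.48* it was 276 to 297 nt in wild type of the nonsense and revertant set. In wild type of the deletion set it was 223 to 229 nt. In TPM, which allow for it, the mean sum was 1278 against 338, and that of *hsp-16.48/hsp-16.49* was 391 against 146.

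Other chaperone genes differed between these wild types as well. The constitutive chaperones were lower in 3 of 3 cases, namely *hsp-1* (log2 fold change -0.90), *hsp-90* (-0.72) and the Hsp110 gene *hsp-110* (-0.72). Of 10 other small heat shock protein genes, 6 were lower and 2 higher, among them *hsp-17* (-2.14) and *hsp-43* (-1.30) lower and *hsp-12.6* (1.38) and *F08H9.3* (2.44) higher. Of 9 genes of the endoplasmic reticulum unfolded protein response, 7 were lower, including the BiP genes *hsp-3* (-1.24) and *hsp-4* (-1.02), and 2 were higher. *hsf-1* itself was higher (0.24, SE 0.064, adjusted *p* = 0.00477 by edgeR).

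Markers of stages and tissues moved as well. All 3 moulting markers (*mlt-10*, *mlt-11*, *noah-1*), 3 of 3 muscle markers, 2 of 2 hypodermal markers and 3 of 3 sperm markers were lower in wild type of the deletion set. Summed moulting markers ran from 66.3 to 94.9 CPM there against 193 to 232 in wild type of the nonsense and revertant set, and summed muscle markers from 1855 to 2413 against 3672 to 4334, with no marker at 0. Other sums were higher in wild type of the deletion set, at 34.5 to 41.1 CPM against 24.2 to 26.7 for intestine, 2200 to 2444 against 1858 to 1989 for oocytes and 2022 to 2101 against 1691 to 1754 for the germ line. Neuronal sums (177.7 to 190.0 against 154.5 to 165.2) and dauer sums (2.01 to 2.43 against 1.27 to 1.75) were also higher, and adult sums overlapped. After TMM scaling, 1 of 2 intestinal markers was higher and 1 lower, 1 of 3 oocyte markers was higher and 1 of 3 germ-line markers was lower. In whole-animal RNA, fewer cells of a type and less RNA per cell cannot be told apart, and the part of these shifts in the heat-inducible genes was not tested. The labels keep the plate sets apart, but whether they were grown or sequenced together is not given. Any such difference cannot be told apart from one between the wild types themselves.

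The comparison within the nonsense and revertant set asked which changes of *sid-1(jam80[nonsense])* persisted after the sequence was restored in *sid-1(jam86[revertant])*. All 6 heat-inducible entries were lower in the revertant than in wild type and did not overlap between these groups. The share of all genes tested that also did not overlap was not counted. The median log2 fold change of the 6 was -1.08, against 0.02 over all 16628 genes tested. Of all genes tested, 3.27% passed in either direction and 0.89% were lower. Only 8 genes had a more negative fold change than *F44E5.4/F44E5.5* and 54 than *hsp-16.48/hsp-16.49*, the least changed of the 6.

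The largest difference was that of *F44E5.4/F44E5.5*, the inducible Hsp70 pair. It had 1002, 693 and 679 CPM in wild type and 245, 318 and 223 CPM in *sid-1(jam86[revertant])*. Every revertant library was below every wild-type library, and the revertant was 3.03-fold lower (log2 fold change -1.60, SE 0.136, adjusted *p* = 3.30e-05 by edgeR).

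*hsp-70* had 83.1, 53.7 and 45.3 CPM in wild type and 21.6, 26.6 and 19.6 in the revertant, 2.68-fold lower (log2 fold change -1.42, SE 0.161, adjusted *p* = 0.000364). The 4 *hsp-16* entries were 1.84-fold to 2.21-fold lower. *hsp-16.2* fell 2.21-fold, from 47.3, 28.4 and 30.7 CPM to 14.7, 19.2 and 14.1 CPM in the revertant (log2 fold change -1.15, SE 0.150, adjusted *p* = 0.00111). Its divergent neighbour *hsp-16.41* fell 1.98-fold, from 41.1, 24.3 and 24.97 CPM to 12.23, 18.8 and 14.7 CPM (log2 fold change -0.99, SE 0.168, adjusted *p* = 0.00582).

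Both entries of the inverted repeat were lower too. *hsp-16.1/hsp-16.11* had 214, 148 and 150 CPM in wild type and 69.4, 104 and 80.3 CPM in the revertant (2.02-fold lower, log2 fold change -1.02, SE 0.133, adjusted *p* = 0.00110). *hsp-16.48/hsp-16.49* had 184, 112 and 116 CPM in wild type and 63.5, 88.6 and 72.4 CPM in the revertant (1.84-fold lower, log2 fold change -0.88, SE 0.144, adjusted *p* = 0.00454). Without *sid-1(jam86[revertant])* replicate 3, *hsp-16.41* (adjusted *p* = 0.0590 by edgeR) and *hsp-16.48/hsp-16.49* (0.0525) no longer passed, which left 4 of 6 entries. Without the high wild-type replicate 1 all 6 still passed.

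**Figure D2:**
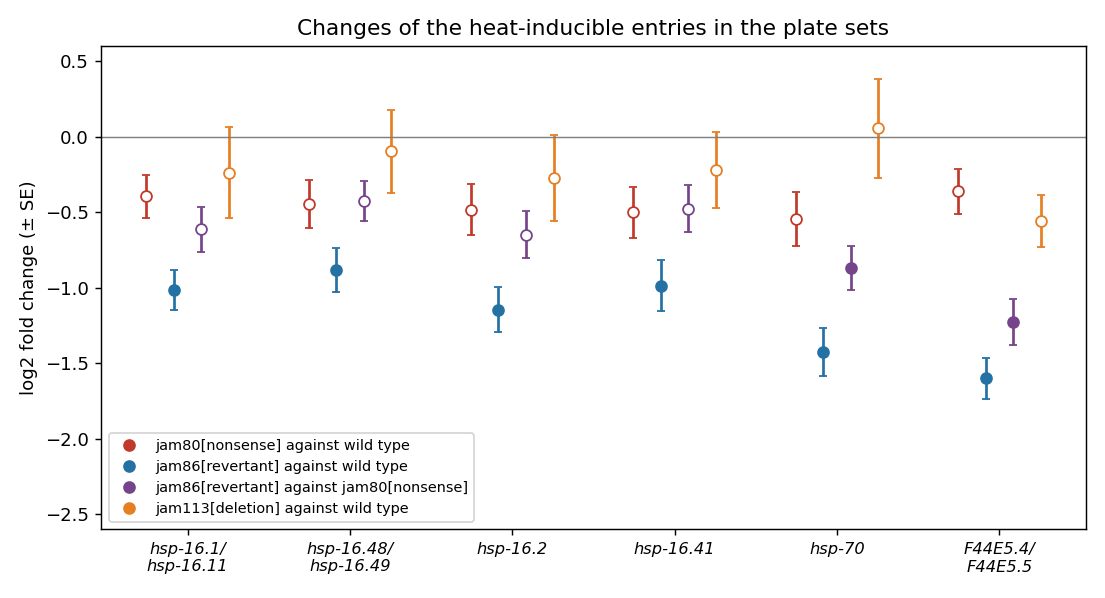
Log2 fold changes (± SE) of the 6 entries in 4 comparisons of the plate sets; filled points passed edgeR's test at an adjusted p under 0.05 and open points did not. The revertant (blue) was below wild type for all 6 entries, from -0.88 to -1.60, whereas no entry passed in *sid-1(jam80[nonsense])* (red) or *sid-1(jam113[deletion])* (orange).

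In *sid-1(jam80[nonsense])* itself, 0 of the 6 entries passed against wild type by edgeR (also 0 by limma with voom and by DESeq2), in a comparison where 0.0665% of 16546 genes did. All 6 estimates were below 0, from -0.36 (*F44E5.4/F44E5.5*, SE 0.149) to -0.54 (*hsp-70*, SE 0.178), and all 6 had an unadjusted *p* under 0.05 (0.00880 to 0.0291, adjusted *p* = 0.739 to 0.762 by edgeR). Of all genes tested, 6.27% reached that unadjusted level and 2.53% did so in the lower direction. These estimates leaned on wild type replicate 1, the highest library. Without it *hsp-70* was at -0.28, *hsp-16.2* at -0.26 and *F44E5.4/F44E5.5* at -0.18, and 0 of 6 entries had an unadjusted *p* under 0.05 by edgeR. Libraries overlapped for all 6 entries. *F44E5.4/F44E5.5*, for example, had 544, 789 and 484 CPM in *sid-1(jam80[nonsense])*, so that replicate 2 exceeded wild type replicates 2 and 3. The wild-type libraries of this comparison and of the revertant's are the same, so their fold changes share the same reference.

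The revertant was also compared directly with *sid-1(jam80[nonsense])*. *F44E5.4/F44E5.5* (log2 fold change -1.23, SE 0.152, adjusted *p* = 0.00144 by edgeR) and *hsp-70* (-0.87, SE 0.146, adjusted *p* = 0.0129) were lower in the revertant, that is 2 of 6 entries where 1.28% of 16601 genes passed and 0.289% were lower. Neither overlapped between the strains, and the share of all genes tested without overlap was not counted. The 4 *hsp-16* entries did not pass, with estimates from -0.43 (*hsp-16.48/hsp-16.49*, SE 0.134) to -0.65 (*hsp-16.2*, SE 0.155) and adjusted *p* = 0.0661 to 0.136. At an unadjusted *p* under 0.05 all 6 entries were lower, against 7.55% of the genes tested. The count was the least steady of the plate sets. Without *sid-1(jam86[revertant])* replicate 3, *hsp-70* did not pass (adjusted *p* = 0.104) and 1 entry was left, whereas without *sid-1(jam80[nonsense])* replicate 3 or without *sid-1(jam86[revertant])* replicate 2 the count was 4, and with no filter on low counts it was 5.

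In the revertant the Hsp70 entries were lower by larger factors than the *hsp-16* entries. Within each library, the summed *hsp-70* and *F44E5.4/F44E5.5* reads were 2.23 to 2.39 times the summed *hsp-16* reads in wild type, 2.17 to 2.49 times in *sid-1(jam80[nonsense])* and 1.34 to 1.67 times in *sid-1(jam86[revertant])*. The revertant's libraries lay below all others of the set. In the deletion set the ratio was 1.44 to 1.91 in wild type and 1.21 to 1.70 in *sid-1(jam113[deletion])*, which overlapped, and in the previously generated alleles it was 1.28 (the rescued strain) to 1.95 (*sid-1(qt9[nonsense])*). Ratios are not comparable across library kits, and no test was made of them. Within families, the ratio of *hsp-16.2* to *hsp-16.41* in TPM was 0.995 to 1.39 in all 15 libraries of the plate sets, and that of *hsp-16.1/hsp-16.11* to *hsp-16.2* was 5.44 to 7.71. The TPM ratio of *hsp-16.1/hsp-16.11* to *hsp-16.48/hsp-16.49* parted the plate sets without overlap, at 0.949 to 1.16 in the nonsense and revertant set and 0.566 to 0.694 in the deletion set. The CPM ratio of *F44E5.4/F44E5.5* to *hsp-70* ran from 8.13 to 17.03 over the plate libraries, with both ends in the deletion set.

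**Figure D3:**
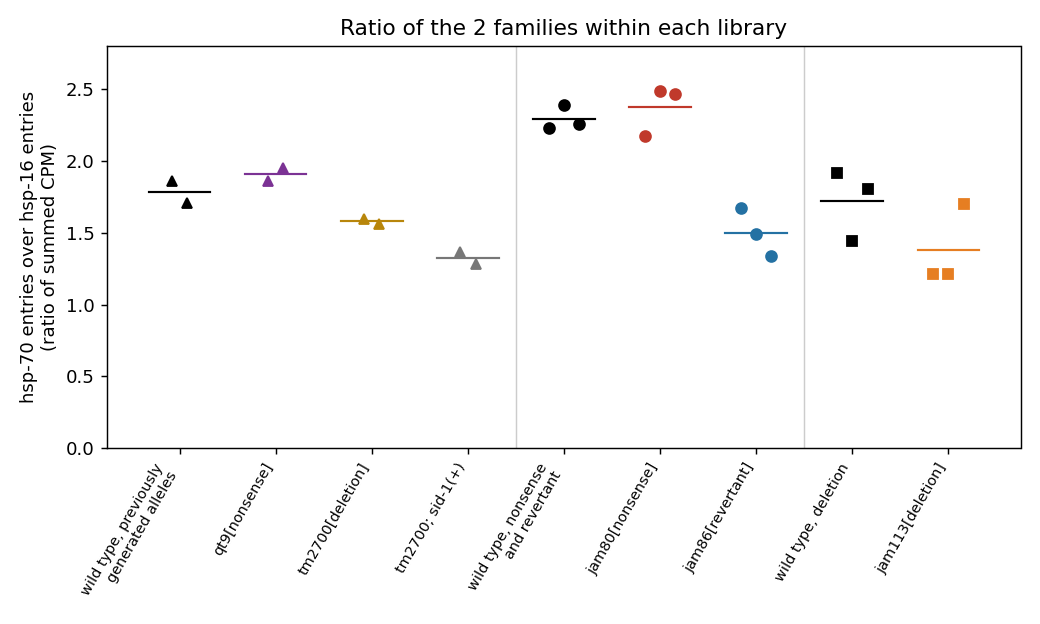
Summed CPM of *hsp-70* and *F44E5.4/F44E5.5* divided by those of the 4 *hsp-16* entries, in each library (points) with group means (bars). The 3 revertant libraries (1.34 to 1.67) lay below the wild-type and *sid-1(jam80[nonsense])* libraries of their set (2.17 to 2.49).

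To see whether other stress genes moved with the heat-inducible ones, the remaining lists were read in the same test of the revertant against wild type. Of 10 other small heat shock protein genes, 0 passed by edgeR. The nearest was *F08H9.4*, a low-level small heat shock protein gene at 0.453, 0.349 and 0.351 CPM in wild type and 0.112, 0.149 and 0.195 CPM in the revertant (log2 fold change -1.38, SE 0.366, adjusted *p* = 0.0554). Of the 3 constitutive chaperones, *hsp-110* was slightly lower (-0.27, SE 0.064, adjusted *p* = 0.0362), while *hsp-1* (0.01, SE 0.073) and *hsp-90* (-0.09, SE 0.066) did not pass. Of 4 genes for HSF-1 and its regulators, 1 passed, *hsf-1* itself, with 83.0, 80.0 and 79.3 CPM in wild type and 70.6, 72.2 and 68.9 CPM in the revertant (log2 fold change -0.21, SE 0.053, adjusted *p* = 0.0498).

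Other changes were few. Of 10 co-chaperones, 1 was lower, *unc-23*, a BAG-domain nucleotide exchange factor for Hsp70 (-0.31, SE 0.080, adjusted *p* = 0.0489 by edgeR). Of 9 genes of the endoplasmic reticulum unfolded protein response, 1 was lower, the PERK kinase gene *pek-1* (-0.27, SE 0.066, adjusted *p* = 0.0434). Of 4 fasting genes, 1 was lower, *fmo-2*, a flavin-containing monooxygenase gene induced by fasting and hypoxia, with 0.764, 0.854 and 0.537 CPM in wild type and 0.181, 0.191 and 0.243 CPM in the revertant (-1.84, SE 0.313, adjusted *p* = 0.00582). DESeq2 gave *fmo-2* no adjusted *p*.

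None of 6 genes of the mitochondrial unfolded protein response, 10 of metal and oxidative stress and 6 of osmotic stress and hypoxia passed in that comparison by edgeR. With upper-quartile factors *hsf-1*, *hsp-110*, *unc-23* and *pek-1* did not pass either (adjusted *p* = 0.0593 to 0.0938). Of the stage and tissue markers, only the sperm gene *spe-11* passed (0.35, SE 0.088, adjusted *p* = 0.0435). Summed sperm markers were at 62.4 to 67.9 CPM in the revertant and 49.7 to 58.2 in wild type, with no marker at 0, and summed moulting markers at 247 to 266 against 193 to 232. Hypodermal sums were also higher in the revertant (152 to 158 against 116 to 149 CPM), and oocyte sums were lower (1641 to 1780 against 1858 to 1989), though none of their markers passed. Their part in the fall of the heat-inducible genes was not tested.

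**Figure D4:**
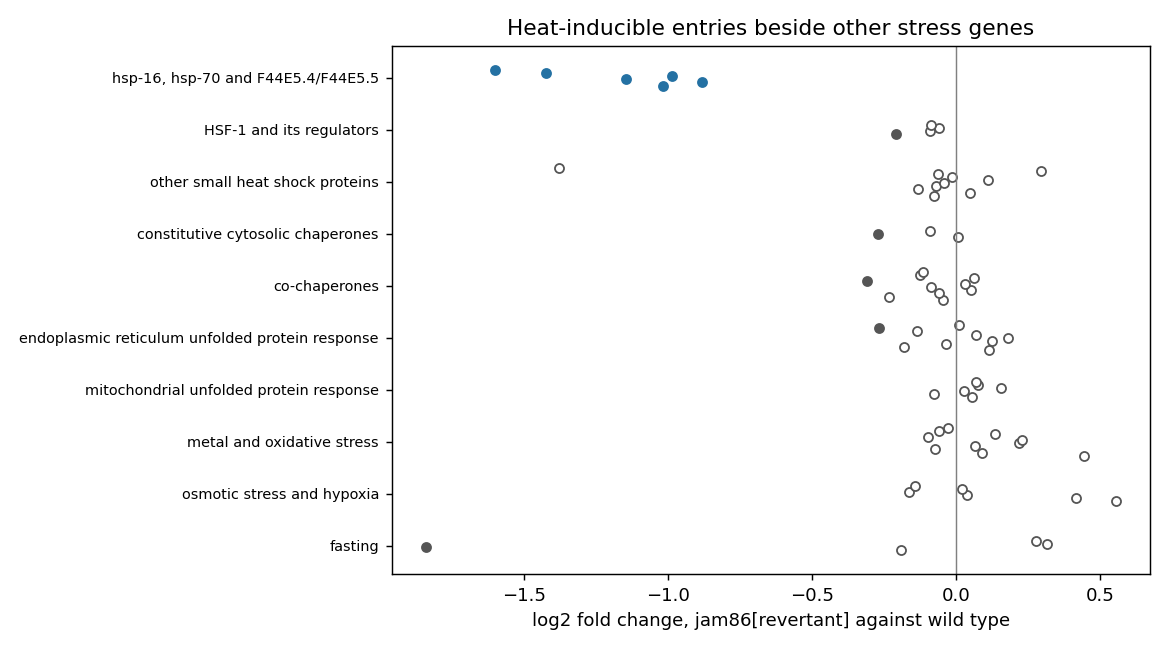
Log2 fold changes of single genes in *sid-1(jam86[revertant])* against wild type, for the 6 heat-inducible entries (blue) and the genes of 9 other stress lists (grey); filled points passed edgeR's test at an adjusted p under 0.05. The heat-inducible entries lay from -0.88 to -1.60, and of the other genes only *fmo-2* (-1.84) and *F08H9.4* (-1.38, not past the threshold) were as low.

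In the deletion set, 0 of the 6 entries passed between *sid-1(jam113[deletion])* and wild type by edgeR and by limma with voom. By edgeR 33 of 16782 genes passed (0.197%). By DESeq2, which called 581 genes in all, 1 entry passed. That 1 was *F44E5.4/F44E5.5*, with 158, 175 and 102 CPM in wild type and 92.4, 110 and 83.8 CPM in *sid-1(jam113[deletion])* (log2 fold change -0.56, SE 0.171, unadjusted and adjusted *p* = 0.0110 and 0.238 by edgeR, adjusted *p* = 0.0273 by DESeq2). Its libraries overlapped through wild type replicate 3. It was also the only entry with an unadjusted *p* under 0.05 by edgeR, which 12.7% of the genes tested reached. For *hsp-70* the means were 9.47 CPM ± 3.44 (SD, n = 3) in wild type and 9.53 ± 3.72 in *sid-1(jam113[deletion])*, with a log2 fold change of 0.05 (SE 0.327), so that changes of up to 0.71 on the log2 scale lie within 2 SE. The *hsp-16* estimates ran from -0.10 to -0.28 with SEs of 0.253 to 0.300.

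The changes in both mutants were compared in one fit of the deletion and nonsense mutants with their wild types. No entry passed (0 of 6 by edgeR at an adjusted *p* under 0.05, 0 at an unadjusted *p* under 0.05, which 10.8% of genes reached, and 0 by limma with voom and by DESeq2), where 0.25% of 17169 genes did. The differences ran from -0.20 (*F44E5.4/F44E5.5*, SE 0.274) to 0.60 (*hsp-70*, SE 0.422). Of the other lists, 2 of 10 genes of metal and oxidative stress passed, the glutathione S-transferase genes *gst-4* (1.68, SE 0.312, adjusted *p* = 0.0471) and *gst-10* (1.38, SE 0.260, adjusted *p* = 0.0489), and both lost the call by limma with voom (adjusted *p* = 0.0994 and 0.0710) and with upper-quartile factors (0.0504 for each). No gene of the lists passed in *sid-1(jam113[deletion])* or in *sid-1(jam80[nonsense])* against its own wild type, in edgeR's test.

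Replicates of the same strain differed in these genes more than in most. The pooled standard deviation of log2 CPM within groups of the plate sets was 0.296 (*F44E5.4/F44E5.5*) to 0.451 (*hsp-70*), against a median of 0.162 over 17276 genes, and 75.5 to 88.5% of genes varied less. Within a group, the highest library exceeded the lowest by 1.35-fold to 1.84-fold for each entry in the nonsense and revertant set. In the deletion set it was up to 2.28-fold (*hsp-70* in *sid-1(jam113[deletion])*).

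The entries moved up and down together between replicates. In the nonsense and revertant set, wild type replicate 1 was the highest of 9 libraries for all 6 entries. In the deletion set, wild type replicate 2 was the highest and *sid-1(jam113[deletion])* replicate 3 the lowest of 6 libraries for all 6 entries, and replicate 2 was highest and replicate 3 lowest in both strains. Deviations from group means in the 15 libraries of the plate sets correlated between entries with Pearson's *r* of 0.843 (*hsp-70* and *F44E5.4/F44E5.5*) to 0.987 (*hsp-16.48/hsp-16.49* and *hsp-16.41*), with a median of 0.947 over 15 pairs of entries. This is a description, since all entries share the same libraries and scaling.

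**Figure D5:**
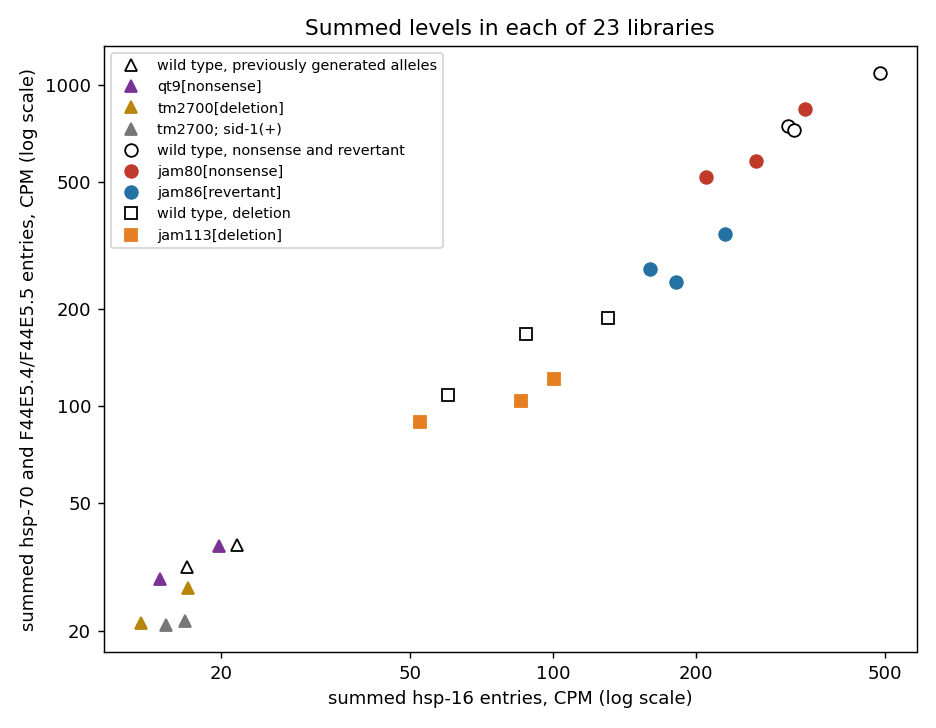
Summed CPM of the 4 *hsp-16* entries (horizontal) and of *hsp-70* with *F44E5.4/F44E5.5* (vertical) in each of 23 libraries, both on log scales; open symbols are wild type. Libraries of the nonsense and revertant set (circles) reached 486 and 1085 CPM in wild type replicate 1, and the previously generated alleles (triangles) stayed at or below 21.6 and 36.9 CPM.

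The genes whose deviations were most like those of the summed *hsp-16* entries, of 17270 others ranked over these 15 libraries, were *H40L08.3* (*r* = 0.912, Spearman's rho = 0.882), *nsy-7* (0.911 and 0.921), *mau-8* (0.898 and 0.864), *Y51F10.11* (0.893 and 0.918) and *WBGene00021037* (0.889 and 0.893). For summed *hsp-70* and *F44E5.4/F44E5.5* they were *nhr-17* (0.895 and 0.929), *Y56A3A.41* (0.892 and 0.854), *F07H5.7* (0.891 and 0.850), *F01F1.3* (0.879 and 0.854) and *mtrf-1L* (0.867 and 0.839). *H40L08.3* and *Y56A3A.41* averaged below 1 CPM (0.653 and 0.221), and none of the 10 is in the stress lists. Because these are the highest of 17270 values from only 15 libraries, they are a description. Shared regulation was not tested.

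In the previously generated alleles all entries were low, and single reads carried weight. The 6 entries summed to 34.7 to 58.4 CPM over the 8 libraries, *hsp-16.2* rested on 14 to 38 reads a library, *hsp-16.41* on 6 to 49 and *hsp-70* on 20 to 64. In *sid-1(qt9[nonsense])*, 0 of 6 entries passed against wild type by edgeR, limma with voom and DESeq2, and 0 had an unadjusted *p* under 0.05, where 1.84% of 18271 genes passed by edgeR and 15.2% reached that unadjusted level. DESeq2 gave no adjusted *p* for *hsp-16.2*, *hsp-16.41* and *hsp-70* here. Estimates ran from -0.25 (*hsp-16.48/hsp-16.49*, SE 0.201) to 0.52 (*hsp-16.2*, SE 0.423). Dauer markers were far higher in this strain, with *cut-1*, *col-2* and *col-40* passing and the summed list of 4 genes at 40.2 and 52.6 CPM against 6.33 and 7.70 in wild type, with no marker at 0. The heat-inducible entries overlapped between the same libraries.

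*F44E5.4/F44E5.5* was the entry that differed in both other strains. It had 30.8 and 34.9 CPM in wild type, 24.6 and 19.3 CPM in *sid-1(tm2700[deletion])* and 19.3 and 19.8 CPM in the rescued strain. Against wild type it was 1.55-fold lower in *sid-1(tm2700[deletion])* (log2 fold change -0.63, SE 0.119, adjusted *p* = 0.0365 by edgeR), the only 1 of 6 entries to pass, where 1.13% of 18309 genes passed and 0.606% were lower. Without *sid-1(tm2700[deletion])* replicate 2 it did not (adjusted *p* = 0.0531), and without wild type replicate 1 the count was 2, with *hsp-16.48/hsp-16.49* lower (adjusted *p* = 0.0118). Without wild type replicate 2 it was also 2, with *hsp-70* higher (adjusted *p* = 0.00181). Of 3 muscle markers, 1 was higher in *sid-1(tm2700[deletion])*, where the list summed to 2495 and 2914 CPM against 1988 and 2048 in wild type, with no marker at 0. Of 4 fasting genes 3 were lower, *fmo-2* (-0.36, adjusted *p* = 0.0426 by edgeR) and the lipase genes *lipl-2* (-0.34, 0.0469) and *lipl-3* (-0.61, 0.00715). The part of these shifts was not tested. With the pairs unsummed neither copy passed. *F44E5.4* was at -2.24 (adjusted *p* = 0.238 by edgeR), with 0 reads in *sid-1(tm2700[deletion])* replicate 2, and *F44E5.5* was at 0.066 (0.973).

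In the rescued strain 3 of 6 entries passed against wild type, where 3.59% of 18295 genes did (1.26% higher and 2.32% lower). *F44E5.4/F44E5.5* was 1.74-fold lower (log2 fold change -0.80, SE 0.129, adjusted *p* = 8.22e-05 by edgeR) and *hsp-16.48/hsp-16.49* 1.62-fold lower (-0.70, SE 0.180, adjusted *p* = 0.0190), whereas *hsp-16.41* was 2.25-fold higher (1.17, SE 0.319, adjusted *p* = 0.0291). By DESeq2 and with upper-quartile factors only *F44E5.4/F44E5.5* passed. Without wild type replicate 1, rescued replicate 1 or rescued replicate 2, *hsp-16.41* lost the call (highest adjusted *p* = 0.356), and without wild type replicate 2 *hsp-16.48/hsp-16.49* did (0.315). The neighbour of *hsp-16.41*, *hsp-16.2*, did not pass and had 1.72 and 1.36 CPM against 0.539 and 0.792 in wild type (1.16, SE 0.354, adjusted *p* = 0.0587). It passed without wild type replicate 2 (0.0432) and without rescued replicate 2 (0.0446). Of the dauer markers, 3 of 4 were higher in the rescued strain, with the list at 11.6 and 12.06 CPM against 6.33 to 7.70 in wild type and no marker at 0, and their part in these calls was not tested.

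*hsp-16.41* also differed between the rescued strain and *sid-1(tm2700[deletion])*, whose allele it carries. Levels were 1.99 and 1.96 CPM in the rescued strain (44 and 49 reads) and 0.586 and 0.253 CPM in *sid-1(tm2700[deletion])* (15 and 6 reads). The log2 fold change was 2.21 (SE 0.346, adjusted *p* = 9.15e-05 by edgeR), and it was the only 1 of 6 entries to pass, where 2.09% of 18291 genes did and 0.7% were higher. DESeq2 gave it no adjusted *p*. All 3 muscle markers were lower in the rescued strain, at 1688 to 1916 CPM summed against 2495 to 2914 in *sid-1(tm2700[deletion])*, with no marker at 0, and their part was not tested. *F08H9.4*, the small heat shock protein gene outside the clusters, had 1.12 and 2.51 CPM in wild type, 8.25 and 6.78 CPM in *sid-1(tm2700[deletion])* and 3.93 and 4.08 CPM in the rescued strain. It was higher than wild type in *sid-1(tm2700[deletion])* (log2 fold change 2.03, SE 0.272, adjusted *p* = 0.00641) and in the rescued strain (1.12, SE 0.267, adjusted *p* = 0.00983), and lower in the rescued strain than in *sid-1(tm2700[deletion])* (-0.90, SE 0.1705, adjusted *p* = 0.00138). The call in the rescued strain against wild type was lost with DESeq2 and without wild type replicate 1 (0.64, adjusted *p* = 0.382 by edgeR), and that against *sid-1(tm2700[deletion])* without *sid-1(tm2700[deletion])* replicate 1 (-0.78, adjusted *p* = 0.0802). The 3 comparisons of this set share libraries, since wild type or *sid-1(tm2700[deletion])* enters more than one of them.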

How the data were processed

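PolyA+ RNA of mixed-stage animals was analysed in 23 libraries, grouped by the sample labels, with biological replicates per the methods. Per the submitters' notes, cutadapt was used for trimming and salmon for quantification (versions not given in the sources used here). The deposited estimated counts per transcript carry no normalization and can be fractional, and the deposited TPM values allow for effective length. Transcripts (31176 matched by identifier, 4485 by sequence name, 88 unmatched) were summed with the Ensembl release 115 annotation of WBcel235, with the member pairs summed, and rounded. The members and lists were chosen with earlier results of these data known.

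CPM are counts scaled to a common library total. Genes above 0.1 CPM in at least 3 libraries (2 for the previously generated alleles) were normalized by TMM and tested with edgeR 4.0.16 (quasi-likelihood, R 4.3.3), with Benjamini-Hochberg adjustment over all genes tested, and called at an adjusted p under 0.05. Standard errors derive from the fold change and F statistic. Only the groups compared entered a fit. The tests were repeated with DESeq2 1.42.0, limma 3.58.1 (voom), upper-quartile factors, no filter, a replicate block, unsummed pairs and leaving out each replicate. Replicate pairs differed beyond sampling noise (chi-square per degree of freedom 4.97 to 124.1 over 19 pairs). On simulated counts, with 200 genes changed by 1.5 (log2), 99.5% were recovered in the comparison of jam113 with wild type (16782 genes, 6.57% of calls false) and 100% in that of qt9 (18271 genes, 5.66% false). Smaller changes, such as the estimates of the heat-inducible entries in these comparisons, were not simulated, so their recovery is not known.

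All members were named, with list genes named where they passed or bear on a result. The genes most like the members were the 5 with the highest Pearson correlation of deviations from group means (log2 CPM, prior count 2) for each family. Sequences were not used here.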

Additional observations from a re-analysis of the deposited data

Results flagged for a closer look

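Within a set, strains other than wild type were tested directly against each other by edgeR. *sid-1(jam86[revertant])* was lower than *sid-1(jam80[nonsense])* in *F44E5.4/F44E5.5* (log2 fold change -1.23) and *hsp-70* (-0.87), as well as in the acyl-CoA synthetase gene *acs-2* (-0.37), and higher in *gst-10* (0.50). The call for *gst-10* was lost by limma with voom and by DESeq2. The rescued strain exceeded *sid-1(tm2700[deletion])* in *hsp-16.41* (2.21) and was below it in *F08H9.4* (-0.90). Across sets, in a fit of both mutants with their own wild types, the change from wild type was higher in *sid-1(jam113[deletion])* than in *sid-1(jam80[nonsense])* for *gst-4* (1.68) and *gst-10* (1.38). No group has 4 or more libraries, so no library was tested as standing apart.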

How the results depend on the processing

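All 6 entries passed in *sid-1(jam86[revertant])* against wild type and between the wild types of the plate sets under every tool, scaling, filter and block tried, and 4 to 6 and 6 to 6 when a replicate was left out. Other counts moved. For *sid-1(jam86[revertant])* against *sid-1(jam80[nonsense])* the count was 5 with no filter, 4 with the replicate block (2 without it) and 1 to 4 with a replicate left out. For *sid-1(tm2700[deletion])* it was 0 with pairs unsummed and 0 to 2 with a replicate left out. For the rescued strain against wild type it was 1 with DESeq2 and 1 with upper-quartile factors, and against *sid-1(tm2700[deletion])* it was 0 with DESeq2, which gave an adjusted *p* for 3 entries only, and 2 with pairs unsummed. For *sid-1(qt9[nonsense])* it was 1 with pairs unsummed, namely *hsp-16.1* listed alone (log2 fold change -8.54). That copy was given 0 reads in both *sid-1(qt9[nonsense])* libraries, where *hsp-16.11* was given 186 and 181. The summed pair was at -0.15 and did not pass. For *sid-1(jam113[deletion])* the count was 1 with DESeq2, which called 581 genes in all against 33 by edgeR. The causes were not tested.

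With pairs unsummed, the copy *F44E5.5* listed alone was at 0.066 in *sid-1(tm2700[deletion])*, where the summed pair passed at -0.63. All other turns of sign were in estimates that did not pass. Listed alone, *F44E5.4* (0.067) and *hsp-16.11* (0.23) turned in *sid-1(qt9[nonsense])*, as did both (1.04 and 0.27) in the rescued strain against *sid-1(tm2700[deletion])*. With upper-quartile factors they were *hsp-16.41* in *sid-1(qt9[nonsense])* (-0.0034) and *hsp-16.1/hsp-16.11* in the rescued strain against *sid-1(tm2700[deletion])* (0.0089). With a replicate left out, estimates in *sid-1(qt9[nonsense])* ranged from -0.28 to 0.0012 (*hsp-16.1/hsp-16.11*), -0.54 to 0.023 (*hsp-16.48/hsp-16.49*), -0.13 to 1.02 (*hsp-16.2*), -0.29 to 0.38 (*hsp-16.41*), -0.50 to 0.83 (*hsp-70*) and -0.24 to 0.11 (*F44E5.4/F44E5.5*). In the rescued strain they ranged from -0.30 to 1.002 for *hsp-70* against wild type, and against *sid-1(tm2700[deletion])* from -0.13 to 0.092 for *hsp-16.1/hsp-16.11* and from -0.29 to 0.0011 for *F44E5.4/F44E5.5*. In *sid-1(jam113[deletion])* they ranged from -0.47 to 0.058 (*hsp-16.1/hsp-16.11*), -0.32 to 0.21 (*hsp-16.48/hsp-16.49*), -0.41 to 0.028 (*hsp-16.41*) and -0.17 to 0.35 (*hsp-70*). The difference between mutants ranged from -0.049 to 0.46 (*hsp-16.1/hsp-16.11*), -0.015 to 0.49 (*hsp-16.2*) and -0.37 to 0.016 (*F44E5.4/F44E5.5*).

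The labels and methods do not say whether same-numbered replicates were paired. Their deviations over all genes correlated at -0.08 to 0.32. The highest value was in *sid-1(jam113[deletion])* against wild type (mean 0.12), and the means of the other comparisons were at most 0.02. The main tests used no replicate block. The block raised *hsp-16.2* past the threshold in the rescued strain against wild type (adjusted *p* = 0.0473 by edgeR). Depth limits the previously generated alleles, where *hsp-16.41* had 6 reads in 1 library.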

Other observations

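2 genes outside the heat-inducible set, singled out after their values were seen, stood far apart between the sets. *fmo-2*, a monooxygenase gene induced by fasting and hypoxia, lay at 199.9 to 269 CPM in the 8 libraries of the previously generated alleles, at 0.181 to 1.11 CPM in the nonsense and revertant set and at 0.572 to 2.28 CPM in the deletion set. *F08H9.4* lay at 1.12 to 8.25 CPM in the previously generated alleles, at 0.106 to 0.453 CPM in the nonsense and revertant set and at 0.0845 to 0.292 CPM in the deletion set. The heat-inducible entries were instead lowest in the previously generated alleles, where their sum was 34.7 to 58.4 CPM against 424 to 1571 CPM in the nonsense and revertant set. Extraction, kit and read type differed with the older set, whose growth is uncertain, and these cannot be told apart.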
